A study of Mus musculus with 34 samples.

Results

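The 22 replication-dependent histone genes described here are the protein-coding genes, among the 18548 rows of the deposited table, whose GENCODE M21 symbol begins with Hist1h, Hist2h, Hist3h or Hist4h. The annotation holds 67 such genes, and the other 45 were not analysed here. The 22 comprise 3 genes of the linker histone H1, 4 of H2A, 7 of H2B, 2 of H3 and 6 of H4. The Hist1 cluster on chromosome 13 holds 14 of them, the Hist2 cluster on chromosome 3 holds 5, the Hist3 cluster on chromosome 11 holds 2, and Hist4h4 lies alone on chromosome 6. The genes were taken by symbol, but the family itself was chosen by the values of Hist2h2aa1 and Hist2h2aa2 in HT and WT libraries of these data, so the values by genotype are a description of the members. The choice used no comparison of regions.

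RNA was sequenced from hippocampus, prefrontal cortex (PFC) and striatum of untreated male C57BL/6J mice at postnatal day 56. Hippocampus gave 5 libraries from mice labelled as Myt1l heterozygotes (HT) and 6 from wild-type mice (WT), PFC gave 5 HT and 6 WT libraries, and striatum gave 6 HT and 6 WT libraries. Myt1l is a neuronal transcription factor gene. The labels describe neither its mutant allele nor whether the libraries of a group came from separate animals, so p-values measure only the spread between these libraries, which may be technical. A code in the column names recurs between regions, and the code 31-67M stands on HT libraries of hippocampus and striatum and on a WT library of PFC; the labels were followed throughout.

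Core histones H2A, H2B, H3 and H4 form the octamer around which DNA is wound, and H1 binds the linker DNA between nucleosomes. The replication-dependent genes supply these proteins when DNA is copied. Their mRNAs classically end in a short stem-loop, bound by the protein Slbp, in place of a poly(A) tail, and they are made and destroyed with S phase. Some of these genes can also give longer, polyadenylated mRNAs, and cells that have stopped dividing use such transcripts. The library kit that the labels name (TruSeq RNA v2) selects RNA with a poly(A) tail and does not keep the strand, so the values below refer chiefly to tailed transcripts.

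The stem-loop was searched in the annotated transcripts, since it sets the classical mRNAs of this class apart. The histone stem-loop was taken as 16 bases on the sense strand that begin with GG and end with CC, with arms of 6 bases that pair around a loop of 4. The pair next to the loop had to be T with A, and the loop base before the last had to be T. G with U was allowed only in the pairs between the GG and that T. This pattern was found in a transcript of 18 of the 22 genes. For scale, in the last 200 bases, a shorter window than was searched in the members, it stood in 66 of 58616 protein-coding transcripts of any gene (0.113%). The sites below are shown to set the 4 forms seen beside each other, as DNA from 5′ to 3′ of the sense strand, with the 16 bases of the stem-loop in capitals and 5 flanking bases on each side.
Hist1h1c: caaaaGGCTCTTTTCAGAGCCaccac
Hist1h2ac: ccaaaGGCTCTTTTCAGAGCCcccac
Hist2h2aa1: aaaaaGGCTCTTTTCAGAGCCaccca
Hist2h2aa2: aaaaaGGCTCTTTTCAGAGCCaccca
Hist3h2a: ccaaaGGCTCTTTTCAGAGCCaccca
Hist1h4h: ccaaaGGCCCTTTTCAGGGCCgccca
Hist1h4i: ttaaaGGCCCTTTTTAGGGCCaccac
Hist1h4j: ctaaaGGTCCTTTTCAGGACCaccac
Hist2h4: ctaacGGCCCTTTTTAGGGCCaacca

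One form, the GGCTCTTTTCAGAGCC of Hist1h1c, was shared by 12 members, which included no H4 gene. The H4 members carried the other forms: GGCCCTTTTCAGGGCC stood in 3 of them, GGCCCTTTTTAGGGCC in 2 and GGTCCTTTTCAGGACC in 1. No match was found in the annotated transcripts of the H2B genes Hist1h2bc, Hist1h2bq, Hist1h2br and Hist2h2be, which says only that these letters were not there. The annotated transcripts ran on past the stem-loop by a median of 603 bases in the 18 members, and by over 100 bases in 15 of them. Among the other 45 annotated genes, 28 held the pattern, with a median of 40 bases after it and over 100 bases in 8 of the 28. The longest annotated transcript had a median of 1404.5 bases in the 22 genes, of which 14 had one over 1000 bases. In the other 45 genes the median was 480 bases, and 4 had one over 1000 bases. Spliced transcripts were annotated for 4 of the 22 genes and for 1 of the other 45. These are properties of the annotation and were not measured in the libraries.

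**Figure D1:**
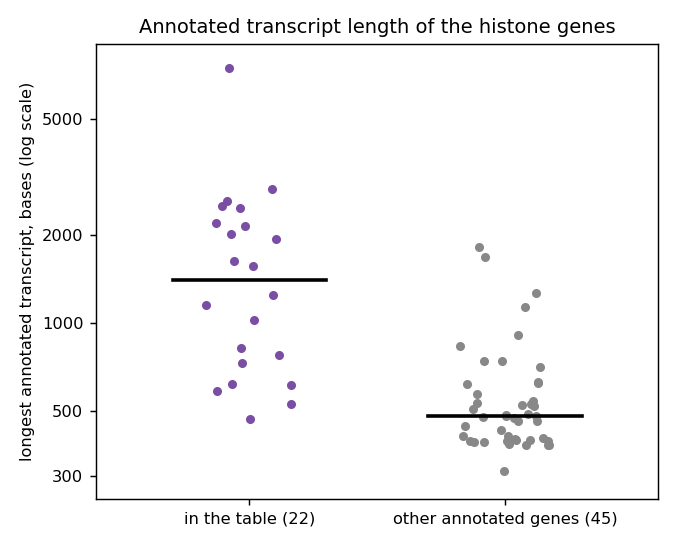
Length in bases, on a log scale, of the longest annotated transcript of each replication-dependent histone gene, with 1 point a gene, a bar at the median and sideways scatter for legibility. The 22 genes of the table have a median of 1404.5 bases and the other 45 annotated genes a median of 480 bases.

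Promoters from RefSeq (GRCm38.p6; the 250 bases before the start of the gene) were matched for 19 of the 22 members. They are shown for the H2A pair Hist2h2aa1 and Hist2h2aa2, because their rows divided the signal differently between HT and WT libraries, and for Hist1h2ac, whose window covers the gap to the divergent H2B gene Hist1h2bc. Capitals mark the CCAAT box (CCAAT), the TATA box (TATAAA) and the octamer of H2B promoters (ATTTGCAT), each searched on both strands; no matches overlapped in these windows.
Hist2h2aa1, chr3:96245247-96245496, plus strand: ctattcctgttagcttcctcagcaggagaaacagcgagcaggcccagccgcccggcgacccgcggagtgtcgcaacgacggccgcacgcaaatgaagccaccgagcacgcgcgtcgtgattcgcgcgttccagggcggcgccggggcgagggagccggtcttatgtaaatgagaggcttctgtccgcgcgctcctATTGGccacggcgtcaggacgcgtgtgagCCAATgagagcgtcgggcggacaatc
Hist2h2aa2, chr3:96240375-96240624, minus strand: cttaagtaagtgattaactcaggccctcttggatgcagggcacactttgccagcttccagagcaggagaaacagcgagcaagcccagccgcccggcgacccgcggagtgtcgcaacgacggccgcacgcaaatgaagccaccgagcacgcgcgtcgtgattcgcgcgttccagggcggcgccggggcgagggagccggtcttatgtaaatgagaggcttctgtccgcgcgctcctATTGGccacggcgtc
Hist1h2ac, chr13:23683960-23684209, minus strand: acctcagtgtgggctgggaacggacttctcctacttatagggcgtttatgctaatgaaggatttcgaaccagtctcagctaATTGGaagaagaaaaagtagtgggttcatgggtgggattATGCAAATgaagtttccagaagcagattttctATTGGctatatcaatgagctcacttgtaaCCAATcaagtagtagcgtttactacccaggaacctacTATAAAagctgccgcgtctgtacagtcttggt

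CCAAT was present in 14 of the 19 member promoters and in 33.8% of 32851 promoters of all genes. TATAAA was present in 7 of 19 and in 12.4% of all. The octamer was present in 4 of 19 (Hist1h2ac, Hist1h2be, Hist1h2bg and Hist3h2a) and in 1.601% of all. The windows of Hist2h2aa1 and Hist2h2aa2 aligned over 199 bases, of which 196 were identical (98.5%). RefSeq places the start of Hist2h2aa2 upstream of the GENCODE transcript. The 528 bases of the annotated Hist2h2aa2 transcript were identical to bases 59 to 586 of the 586-base Hist2h2aa1 transcript. A match is a description of letters and not a bound site.

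The normalized counts of all genes summed to 25786041 to 29798959 per library. Myt1l was called in no region (adjusted p of 0.719 to 0.988, limma) and its HT and WT ranges overlapped in each. It was at 6896 ± 385 in HT and 6216 ± 594 in WT hippocampus, 6820.3 ± 456 in HT and 6650.2 ± 842 in WT PFC, and 8162 ± 954 in HT and 7675 ± 552 in WT striatum (SD). The values cover the whole gene, and with the allele not described they do not check the labels; HT and WT below mean libraries labelled HT or WT. The summed markers of striatal projection neurons were at 50872 to 74622 in HT and 59492 to 73934 in WT striatum, and at 2273 to 8642 in the libraries of the other regions. Cortical excitatory markers summed to 49358 to 50932 in HT and 48700 to 51675 in WT PFC. In striatum their sum ranged widely, from 2299 to 11254 in HT and 2393 to 12223.5 in WT. The part of this spread in the comparisons with striatum was not tested.

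An H2A gene, Hist3h2a, and an H2B gene, Hist1h2bc, had the highest means in every region. The 5 members with the highest means held 76.5% of the summed value of the 22 genes. Hist3h2a, an H2A gene of the Hist3 cluster (ENSMUSG00000078851, GRCm38 chromosome 11, 58954685 to 58956830, plus strand), averaged 818 normalized counts over the 34 libraries; it overlaps Trim17, and without strand their reads cannot be told apart there. Hist1h2bc, an H2B gene with a spliced annotated transcript (ENSMUSG00000018102, GRCm38 chromosome 13, 23684199 to 23692908, plus strand), averaged 724. Hist1h1c, a linker histone H1 gene (ENSMUSG00000036181, GRCm38 chromosome 13, 23738808 to 23740367, plus strand), averaged 394, Hist2h2be (H2B) 231 and Hist3h2ba (H2B) 196. Per kilobase of longest transcript the order of these genes changed, and Hist1h2bc came first at 626, before Hist3h2a at 381, Hist3h2ba at 318, Hist1h1c at 253 and Hist2h2be at 88.1. In all, 8 members averaged at least 100 normalized counts, 9 averaged 10 to 100 and 5 averaged under 10. The 5 lowest were Hist1h2br (H2B) at 9.86, Hist4h4 (H4) at 7.43, Hist1h1d (H1) at 7.12, Hist1h4c (H4) at 5.597 and Hist1h4j (H4) at 5.39.

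**Figure D2:**
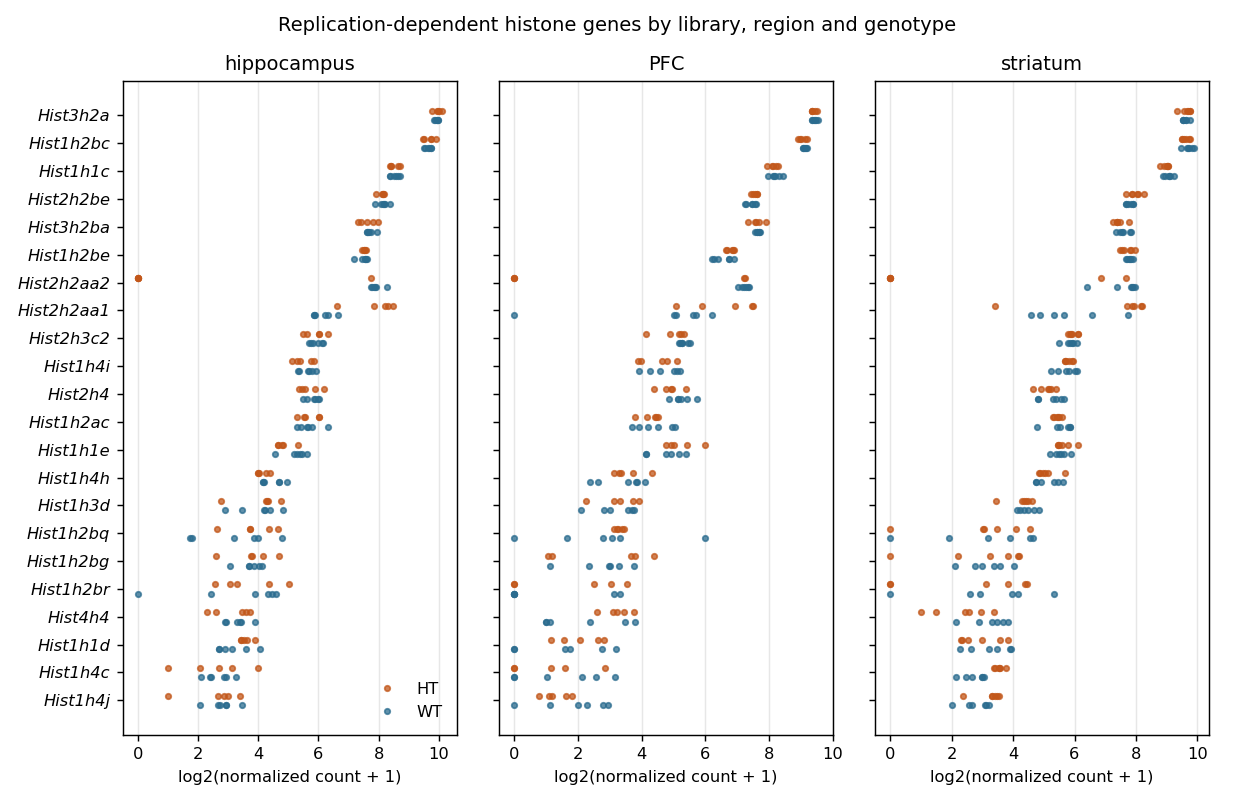
Level of each of the 22 members in every library as log2(normalized count + 1), by region, with HT above WT for each gene and 1 point a library; genes run from the highest to the lowest mean over the 34 libraries. Hist2h2aa2 is at 0 in 4 of 5 HT libraries of hippocampus, 3 of 5 of PFC and 4 of 6 of striatum, and most other members overlap between HT and WT.

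Summed over the 22 genes, the level was lower in PFC than in hippocampus and striatum in both genotypes. The sum was 3495 ± 233 in HT hippocampus and 3496 ± 96.9 in WT hippocampus, 2343 ± 66.1 in HT PFC and 2390.3 ± 83.5 in WT PFC, and 3339.6 ± 83.01 in HT striatum and 3418 ± 158 in WT striatum (SD). No PFC library reached the lowest library of the other regions: the highest PFC sum was 2492, a WT library, and the lowest sum elsewhere was 3137, an HT library of hippocampus. The H2A genes summed to 1356 ± 116 in HT hippocampus and 1342 ± 58.2 in WT hippocampus, 867 ± 50.99 in HT PFC and 895 ± 43.2 in WT PFC, and 1107 ± 54.4 in HT striatum and 1098 ± 35.6 in WT striatum. The H2B genes summed to 1523 ± 132 in HT hippocampus and 1512 ± 69.1 in WT hippocampus, 1040.0 ± 39.01 in HT PFC and 1039.5 ± 55.2 in WT PFC, and 1449 ± 41.6 in HT striatum and 1508 ± 111 in WT striatum. The H2A means were highest in hippocampus, the H2B means of hippocampus and striatum differed by less than the larger SD, and the H1 means, mostly Hist1h1c, were highest in striatum. The H1 sums were 406 ± 46.1 in HT hippocampus and 418 ± 32.04 in WT hippocampus, 320.3 ± 30.01 in HT PFC and 323 ± 40.6 in WT PFC, and 559 ± 25.5 in HT striatum and 587 ± 43.99 in WT striatum. The H3 and H4 genes were the lowest classes. H3 summed to 77.5 ± 12.1 in HT hippocampus and 76.3 ± 11.5 in WT hippocampus, 40.4 ± 11.8 in HT PFC and 47.4 ± 5.91 in WT PFC, and 79.5 ± 5.05 in HT striatum and 78.3 ± 6.996 in WT striatum. H4 summed to 133 ± 21.3 in HT hippocampus and 147 ± 12.4 in WT hippocampus, 75.2 ± 13.96 in HT PFC and 85.4 ± 15.1 in WT PFC, and 146 ± 8.64 in HT striatum and 147 ± 18.9 in WT striatum. In each of the 5 classes the PFC means were the lowest in both genotypes. A sum is not weighted by length. With libraries scaled to equal totals the sum of all members was 3538 ± 231 in HT and 3515 ± 98.5 in WT hippocampus, 2219.8 ± 73.8 in HT and 2259 ± 75.8 in WT PFC, and 3509 ± 140 in HT and 3565 ± 131 in WT striatum.

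The H2A pair Hist2h2aa1 (ENSMUSG00000064220, GRCm38 chromosome 3, 96245497 to 96246082, plus strand) and Hist2h2aa2 (ENSMUSG00000063954, GRCm38 chromosome 3, 96239749 to 96240276, minus strand) divided its signal differently between libraries. No stretch of 31 bases in either transcript is its own: each also occurs, on either strand, in the partner or in Gm20632, Gm20633 or Gm20634, which have rows of their own. A read of that length cannot be assigned to 1 row, so the values of single rows are uncertain. Hist2h2aa2 was listed at 0 in 11 of 16 HT libraries and in 0 of 18 WT libraries. In those 11 libraries all of the pair's signal stood at Hist2h2aa1.

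In hippocampus, Hist2h2aa2 was at 214, 0, 0, 0 and 0 in the 5 HT libraries and at 216 to 312 (median 232) in the 6 WT libraries. Hist2h2aa1 was at 96.1, 230.1, 358, 316 and 298 in HT and at 56.1 to 100.3 (median 65.7) in WT. HT replicate 1, the only hippocampal HT library with any Hist2h2aa2, was also the only one whose Hist2h2aa1 fell within the WT range; its Hist2h2aa2 stood just below the lowest WT library. The sum of both was at 309.8, 230.1, 358, 316 and 298 in HT and at 275 to 368 (median 301) in WT, and these ranges overlapped.

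In PFC, Hist2h2aa2 was at 147, 0, 0, 149.6 and 0 in HT and at 129 to 164 (median 150.1) in WT. Hist2h2aa1 was at 32.9, 181, 175, 58.8 and 121 in HT and at 0 to 72.6 (median 40.3) in WT, with 1 WT library (replicate 3) at 0. HT replicates 1 and 4 divided the pair as the WT libraries did, and the other 3 HT libraries had no Hist2h2aa2. The sum was at 179.7, 181, 175, 208 and 121 in HT and at 153 to 219 (median 188) in WT.

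In striatum, Hist2h2aa2 was at 202, 0, 0, 115, 0 and 0 in HT replicates 1 to 6 and at 84.6 to 248 (median 229.5) in WT. Hist2h2aa1 was at 9.73, 292, 232, 246, 289 and 208 in HT and at 23.1 to 213 (median 44.2) in WT, where the 213 of replicate 1 stood far above the other 5. HT replicate 4 carried both genes, and HT replicate 1 almost only Hist2h2aa2. The sum was at 212, 292, 232, 361, 289 and 208 in HT and at 257 to 298 (median 270.2) in WT, so the HT libraries spread more widely on both sides of the WT libraries.

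As a description with no test, the log2 difference between HT and WT was -6.36 (SE 1.37) for Hist2h2aa2 and 1.77 (SE 0.29) for Hist2h2aa1 in hippocampus. It was -4.34 (SE 1.57) and 1.97 (SE 1.09) in PFC, and -5.14 (SE 1.49) and 1.42 (SE 0.86) in striatum. The differences of Hist2h2aa2 rest on values at 0 and on the pseudocount of 1: with a pseudocount of 5 they were -4.52 in hippocampus, -2.97 in PFC and -3.61 in striatum. The summed pair differed by -0.051 (SE 0.11) in hippocampus, -0.14 (SE 0.13) in PFC and -0.071 (SE 0.12) in striatum, with 95% intervals of -0.29 to 0.18, -0.42 to 0.15 and -0.33 to 0.19 in the same order. Its mean was 303 ± 46.3 in HT hippocampus and 312 ± 35.1 in WT hippocampus, 173 ± 31.9 in HT PFC and 189 ± 24.2 in WT PFC, and 266 ± 59.4 in HT striatum and 274 ± 15.7 in WT striatum (SD). With the rows of Gm20632, Gm20633 and Gm20634 added, the sum was 744 ± 71.2 in HT hippocampus and 748 ± 61.8 in WT hippocampus, 437 ± 54.2 in HT PFC and 461 ± 23.2 in WT PFC, and 681 ± 56.4 in HT striatum and 706 ± 56.9 in WT striatum.

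**Figure D3:**
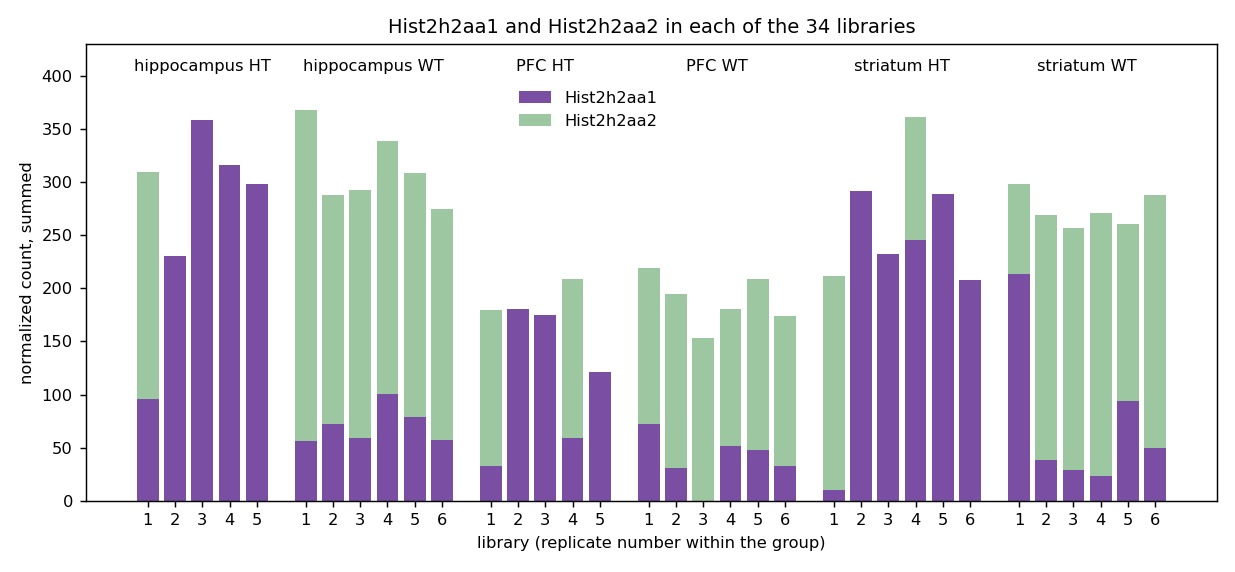
Normalized counts of Hist2h2aa1 and Hist2h2aa2 stacked for each of the 34 libraries, with the HT libraries of a region left of its WT libraries. The full height runs from 121 to 368, while Hist2h2aa2 is at 0 in 11 of 16 HT libraries and in 0 of 18 WT libraries.

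The share of the pair at Hist2h2aa1 followed the library codes in part. The 5 codes that stand only on HT libraries cover 14 libraries, of which 11 had 100% at Hist2h2aa1 and the lowest had 18.3%. The 6 codes that stand only on WT libraries cover 17 libraries with 0% to 71.6% and a median of 20.8%. The code 31-67M had 31.02% in HT hippocampus, 4.59% in HT striatum and 18.8% in WT PFC, so its 3 libraries were low under either label. The codes 35-2M and 35-7M had 100% in HT hippocampus and HT striatum, but 18.3% and 28.2% in HT PFC. The code 35-6M had 100% in HT hippocampus and HT PFC and 68.1% in HT striatum. The code 31-510M had 15.3% in WT hippocampus and 71.6% in WT striatum. What a code stands for is not given in the labels, and the part of the code, of the genotype and of the assignment of reads in this share was not tested.

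The values at 0 outside the pair lay in low genes. Over the 22 members, 33 of 748 values were 0; 14 members were never at 0 and 8 were at 0 in at least 1 library. Besides the pair, Hist1h2br accounted for 10 of these values, Hist1h4c for 4, Hist1h2bq for 3, Hist1h1d for 2 and Hist1h2bg and Hist1h4j for 1 each. Hist1h2bq and Hist1h2br encode H2B and share their sequence, with 1.7% and 10.5% of their 31-base stretches their own. Hist1h2bq was at 8.44, 9.45, 9.81, 7.83 and 8.55 in HT PFC and at 0 to 62.1 (median 6.697) in WT PFC, where replicate 2 alone held the 62.1 and replicate 5 the 0. The sum of Hist1h2bq and Hist1h2br was 28.9 ± 6.32 in HT hippocampus and 24.8 ± 6.102 in WT hippocampus, 13.3 ± 4.52 in HT PFC and 17.2 ± 25.9 in WT PFC, and 20.8 ± 5.96 in HT striatum and 25.5 ± 11.1 in WT striatum and was never 0. It differed between HT and WT by 0.22 (SE 0.23) in hippocampus, 0.39 (SE 0.59) in PFC and -0.21 (SE 0.33) in striatum on the log2 scale.

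Of the 22 members, 18 were tested for HT against WT in hippocampus, 15 in PFC and 17 in striatum, the rest averaging under 10 normalized counts there. By limma, with p-values adjusted by Benjamini-Hochberg across every gene in the fit, 0 members had an adjusted p under 0.05 in any region. The share of all genes called was 0% in each, that is 0 of 16820, 0 of 16667 and 0 of 17054 genes. At an unadjusted p under 0.05 there were 1145, 833 and 1004 genes. The median difference over the members tested was -0.0086 in hippocampus, -0.030 in PFC and -0.079 in striatum, beside -0.0014, -0.0031 and -0.0038 over all genes tested. Without hippocampus HT replicate 1, 4 genes passed, of which 2 were Hist2h2aa2 at -7.91 (SE 0.21) and Hist2h2aa1 at 2.09 (SE 0.18); without the libraries whose code begins with 31, Hist2h2aa1 passed in striatum at 2.57 (SE 0.30). Both counts are a description and no test, since the HT and WT values of this pair chose the family and the library left out in hippocampus is the HT library that holds Hist2h2aa2.

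Outside the pair, the members of smallest p in either direction were all short of the threshold, and their values follow. In hippocampus, Hist1h1e, a linker histone H1 gene that overlaps Hist1h2be, was at 26.4, 27.5, 24.1, 39.03 and 24.3 in HT and at 22.4 to 47.7 (median 39.6) in WT, a difference of -0.40 (SE 0.22). Hist1h2bq was at 12.2, 23.996, 19.3, 12.1 and 5.21 in HT and at 2.33 to 26.9 (median 10.9) in WT, a difference of 0.58 (SE 0.56). In PFC, Hist2h4 (H4) was at 29.2, 26.1, 40.6, 19.9 and 29.9 in HT and at 27.8 to 51.99 (median 35.3) in WT, a difference of -0.37 (SE 0.22). HT and WT overlapped in each of these 3 genes. Hist1h2be (H2B) was at 98.2, 115, 102, 119 and 112 in HT PFC and at 72.8 to 118 (median 93.9) in WT PFC, a difference of 0.24 (SE 0.15). In striatum, Hist3h2ba was at 153 to 215 (median 167) in HT and at 161 to 226 (median 189) in WT, a difference of -0.16 (SE 0.11). Hist2h2be was at 203 to 305 (median 247) in HT striatum and at 205 to 238 (median 221) in WT striatum, a difference of 0.16 (SE 0.10). Hist1h2be, Hist3h2ba and Hist2h2be also overlapped between HT and WT. A member left out by the filter of 10 normalized counts, Hist1h4c (H4), is named after its values were seen. It was at 9.29 to 12.7 (median 10.6) in HT striatum and at 3.42 to 7.21 (median 6.11) in WT striatum, with no overlap, and its mean over these libraries was under 10 normalized counts. The share of all genes with no such overlap is not given here, so nothing is read from it. With no filter on low values, 0 of 22 members and 0 of 18548 genes were called for HT against WT in striatum. HT and WT overlapped for Hist1h4c in the other regions, with means of 6.44 ± 5.32 in HT and 5.56 ± 1.92 in WT hippocampus, and 1.88 ± 2.54 in HT and 2.88 ± 3.17 in WT PFC.

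The 3 genes of highest level had the smallest standard errors for HT against WT of the members tested in each region. Hist3h2a was at 1103, 881, 987, 1029 and 1011 in HT and at 926 to 1016 (median 989) in WT hippocampus, and its difference was 0.031 (SE 0.057), with a 95% interval of -0.089 to 0.15. In PFC it was at 698, 649, 724, 652 and 653 in HT and at 644 to 738 (median 682) in WT, a difference of -0.020 (SE 0.058). Hist1h2bc was at 971, 714, 732, 849.6 and 851 in HT and at 721 to 864 (median 810.3) in WT hippocampus, a difference of 0.033 (SE 0.079). Its differences were -0.068 (SE 0.064) in PFC and -0.092 (SE 0.072) in striatum. Hist1h1c differed by -0.023 (SE 0.089) in hippocampus, -0.066 (SE 0.10) in PFC and -0.082 (SE 0.070) in striatum. The difference of the genotype effect between regions was called for 0 of 17051 genes in each pair of regions, with 612 to 641 genes at an unadjusted p under 0.05, and for 0 of the 17 members tested.

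**Figure D4:**
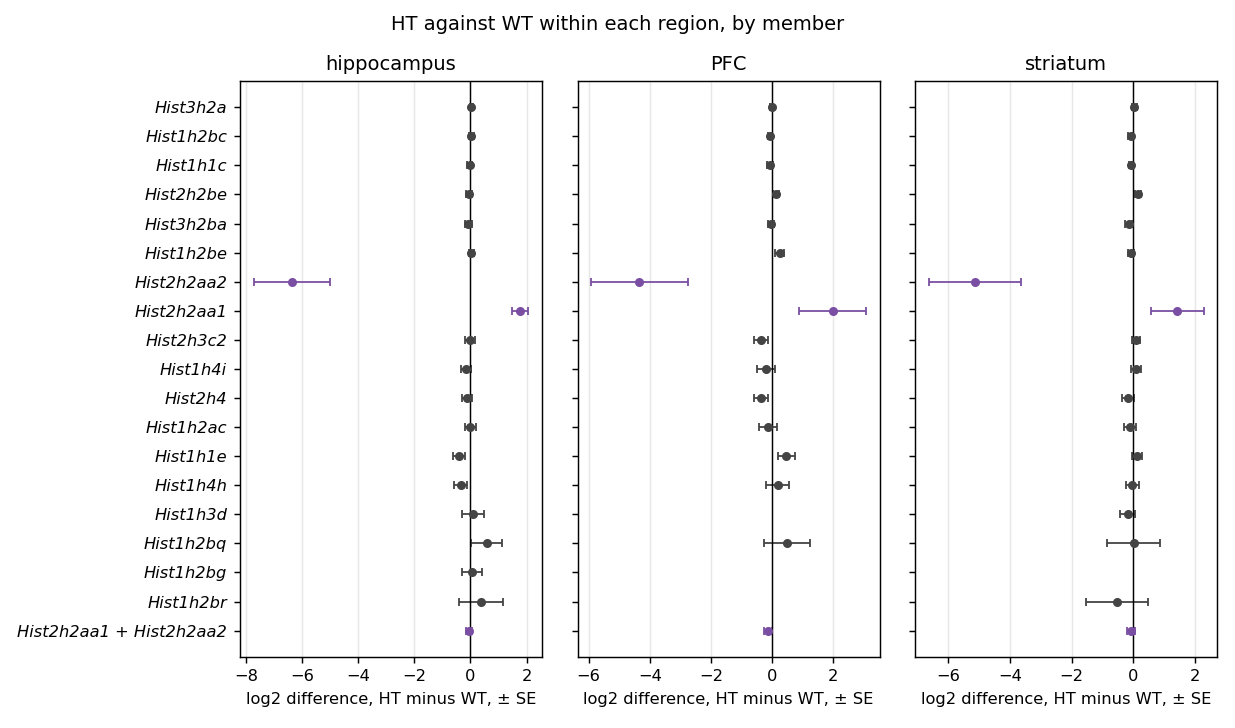
Log2 difference of HT against WT with its standard error for each member tested and for the summed pair, by region; the pair is in purple. Hist2h2aa2 lies at -6.36, -4.34 and -5.14 in hippocampus, PFC and striatum and Hist2h2aa1 at 1.77, 1.97 and 1.42, while their sum lies at -0.05, -0.14 and -0.07.

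Between regions most members tested were higher in hippocampus and in striatum than in PFC. Within WT, 16 of the 22 genes were tested, and the other 6 averaged 4.72 to 9.97 normalized counts. In hippocampus against PFC, 12 of the 16 were higher and 0 lower at an adjusted p under 0.05 (limma). Among all 17017 genes tested 46.3% were called, 23.6% higher and 22.7% lower. The median difference was 0.65 over the 16 members and 0.0095 over all genes. By WT means, 21 of all 22 members were higher in hippocampus than in PFC, the low genes that were not tested included. Near-identical rows count singly here, and the exception, Hist1h2bq, held 62.1 in PFC WT replicate 2. Of all 17017 genes tested, 8731 had a log2 difference above 0. In PFC against striatum, 0 members were higher and 11 lower; of all genes 56.6% were called, 27.7% higher and 29% lower, and the medians were -0.69 and -0.011. In hippocampus against striatum, 3 were higher and 2 lower; of all genes 47.5% were called, 23.6% higher and 23.9% lower. These comparisons share their libraries, since each region enters 2 of them.

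Among the H2A and H2B genes, Hist1h2ac (H2A, ENSMUSG00000069270, GRCm38 chromosome 13, 23681467 to 23683948, minus strand) had the largest difference between hippocampus and PFC of those called. It was at 37.8 to 78.2 (median 48.9) in WT hippocampus, 11.96 to 32.3 (median 19.6) in WT PFC and 26.7 to 57.02 (median 49.6) in WT striatum. The log2 difference was 1.29 (SE 0.25) for hippocampus against PFC (adjusted p 0.000179, limma) and -1.15 (SE 0.25) for PFC against striatum (adjusted p 0.000425). All hippocampal libraries lay above all PFC libraries, and striatum and PFC overlapped. Its divergent neighbour Hist1h2bc was at 721 to 864 (median 810.3) in WT hippocampus, 527 to 577 (median 548) in WT PFC and 707 to 949 (median 835) in WT striatum. PFC lay below both other regions without overlap, while hippocampus and striatum overlapped, and the differences were 0.54 (SE 0.064) for hippocampus against PFC (adjusted p 3.37e-07, limma) and -0.60 (SE 0.064) for PFC against striatum (adjusted p 3.91e-08). Hist1h2be (H2B, ENSMUSG00000047246, GRCm38 chromosome 13, 23583670 to 23621124, minus strand) was at 144 to 195 (median 185) in WT hippocampus, 72.8 to 118 (median 93.9) in WT PFC and 204 to 239 (median 219) in WT striatum. All 3 regions were apart for this gene, with striatum highest; the differences were 0.95 (SE 0.12) for hippocampus against PFC (adjusted p 5.91e-07, limma) and -1.25 (SE 0.12) for PFC against striatum (adjusted p 5.37e-09).

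Hist3h2a and Hist2h2be had their highest values in hippocampus. Hist3h2a was at 926 to 1016 (median 989) in WT hippocampus, 644 to 738 (median 682) in WT PFC and 734 to 860.5 (median 769) in WT striatum. Hippocampus lay above both other regions without overlap, by 0.51 (SE 0.051) over PFC (adjusted p 1.86e-08, limma) and 0.33 (SE 0.051) over striatum (adjusted p 8.85e-06). PFC against striatum gave -0.18 (SE 0.051), also called, with overlap. Hist2h2be was at 237 to 335 (median 287) in WT hippocampus, 149 to 189.8 (median 174) in WT PFC and 205 to 238 (median 221) in WT striatum, and differed by 0.73 (SE 0.089) for hippocampus against PFC, 0.36 (SE 0.089) for hippocampus against striatum and -0.37 (SE 0.089) for PFC against striatum. Hist3h2ba, beside Hist3h2a in the Hist3 cluster, showed no such order: it was at 196 to 246 (median 202) in WT hippocampus, 188 to 209 (median 201) in WT PFC and 161 to 226 (median 189) in WT striatum. Its 3 differences were 0.064 (SE 0.089), 0.11 (SE 0.089) and 0.046 (SE 0.089) for the same comparisons, with adjusted p of 0.331 to 0.683 (limma); with libraries scaled to equal totals the sign of the last turned, to -0.10. The 95% interval of the first ran from -0.12 to 0.25.

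The linker histone gene Hist1h1c was highest in striatum. It was at 332 to 415 (median 374) in WT hippocampus, 246 to 348 (median 286) in WT PFC and 466 to 597 (median 541) in WT striatum. Striatum lay above both other regions without overlap. The log2 differences were 0.35 (SE 0.085) for hippocampus against PFC (adjusted p 0.00181, limma), -0.52 (SE 0.085) for hippocampus against striatum (adjusted p 2.4e-05) and -0.86 (SE 0.085) for PFC against striatum (adjusted p 1.07e-08). Hist1h1e was lower in PFC than in striatum, at -0.78 (SE 0.23), and did not pass in hippocampus against PFC at 0.50 (SE 0.23) (adjusted p 0.0812, limma); leaving out PFC WT replicate 6 or hippocampus WT replicate 1 brought it past the threshold, at 0.63 and 0.64. Within HT the difference between the same regions had the other sign, at -0.37 (SE 0.23) (adjusted p 0.218, limma), with means of 28.3 ± 6.17 in hippocampus and 38.01 ± 14.6 in PFC.

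Among the H3 and H4 genes, Hist1h4h (H4, ENSMUSG00000060981, GRCm38 chromosome 13, 23531050 to 23531519, plus strand) had the largest difference between PFC and striatum of those called. It was at 16.8 to 29.9 (median 20.98) in WT hippocampus, 4.196 to 16.2 (median 12.02) in WT PFC and 25.5 to 48.8 (median 34.4) in WT striatum. The differences were 1.08 (SE 0.30) for hippocampus against PFC (adjusted p 0.00452, limma) and -1.75 (SE 0.30) for PFC against striatum (adjusted p 2.68e-05), with no overlap in either. Of the 31-base stretches of Hist1h4h, 50% are its own. Hist1h4j and Hist1h4c, which have rows of their own, hold 44.8% and 38.0% of them, so the values of this row are uncertain. Hist1h4i (H4) was at 39.2 to 59.6 (median 50.1) in WT hippocampus, 14.2 to 35.6 (median 27.2) in WT PFC and 36.6 to 66.6 (median 53.5) in WT striatum, and differed by 0.94 (SE 0.22) for hippocampus against PFC and -1.04 (SE 0.22) for PFC against striatum. Hippocampus and striatum overlapped for this gene, and 64.4% of its 31-base stretches are its own. Hist1h3d (H3) was at 6.38 to 27.4 (median 17.4) in WT hippocampus, 3.31 to 12.4 (median 9.005) in WT PFC and 16.5 to 27.7 (median 20.5) in WT striatum. It differed by 0.84 (SE 0.33) for hippocampus against PFC (adjusted p 0.0445, limma) and -1.30 (SE 0.33) for PFC against striatum (adjusted p 0.00205); the first call held in 8 of 18 fits that each left out 1 WT library, with differences of 0.63 to 1.06, and did not hold without PFC WT replicate 1, 2 or 5, hippocampus WT replicate 2, 4, 5 or 6, or striatum WT replicate 3, 5 or 6. Hist2h3c2 (H3) differed by 0.61 (SE 0.14) for hippocampus against PFC and -0.54 (SE 0.14) for PFC against striatum. Only 35.8% of its 31-base stretches are its own. Gm20634, which has a row of its own, and Hist2h3c1 each hold 64.2% of them, so the values of this row are uncertain.

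Hist2h4 (H4) was at 43.96 to 63.8 (median 56.96) in WT hippocampus, 27.8 to 51.99 (median 35.3) in WT PFC and 26.8 to 49.9 (median 39.5) in WT striatum, and was higher in hippocampus than in PFC by 0.56 (SE 0.19) and than in striatum by 0.56 (SE 0.19) (adjusted p 0.0178 and 0.0181, limma). PFC and striatum overlapped, with a difference of -0.0038 (SE 0.19). Without striatum WT replicate 2 or 6 the second call was lost, at 0.46 each. Hist1h2be in hippocampus against striatum, at -0.30 (SE 0.12), kept its call in 10 of 18 fits that left out 1 WT library, with differences of -0.32 to -0.24; the call was lost without hippocampus WT replicate 1, 2, 4 or 6 or striatum WT replicate 1, 2, 5 or 6. Of the 28 calls in the 3 comparisons, the other 25 held in every such fit.

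The H2A pair was higher in hippocampus and striatum than in PFC once its rows were summed. The sum was at 275 to 368 (median 301) in WT hippocampus, 153 to 219 (median 188) in WT PFC and 257 to 298 (median 270.2) in WT striatum. It differed by 0.73 (SE 0.091) for hippocampus against PFC (adjusted p 7.37e-07, limma) and -0.54 (SE 0.091) for PFC against striatum (adjusted p 2.34e-05), and hippocampus and striatum did not pass at 0.18 (SE 0.091). Taken alone, Hist2h2aa2 was called in hippocampus against PFC at 0.68 (SE 0.19) and Hist2h2aa1 was not, at 1.53 (SE 0.84). PFC against striatum was not called for Hist2h2aa2 at -0.34 (SE 0.19) but was at -0.56 without striatum WT replicate 1. The sum of Hist1h2bq and Hist1h2br was called as well, at 1.27 (SE 0.50) for hippocampus against PFC and -1.22 (SE 0.50) for PFC against striatum (adjusted p 0.0444 and 0.0454, limma). Both calls lay close to the threshold, and the regions overlapped. PFC WT replicate 2 had this sum at 69.9, above the highest WT library of hippocampus (35.4) and of striatum (39.04). The remaining WT PFC libraries were at 2.17 to 8.93.

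The comparisons within HT used none of the WT libraries. Of 17 members tested, 9 were higher and 0 lower in hippocampus against PFC, where 42.6% of all 17080 genes were called, 21.9% higher and 20.7% lower, and the 9 were all among the 12 called in WT. In PFC against striatum 0 were higher and 10 lower, beside 54.9% of all genes called, 26.9% higher and 28.1% lower, and the 10 were all among the 11 called in WT. In hippocampus against striatum 2 were higher and 3 lower, beside 45.3% of all genes called, 22.7% higher and 22.6% lower; Hist2h4 and Hist3h2a were higher and Hist1h1c lower in both genotypes. Hist1h2ac was at 38.2, 46.2, 64.1, 63.8 and 44.4 in HT hippocampus, 21.6, 20.5, 16.8, 20.9 and 12.9 in HT PFC and 38.3 to 46.7 (median 42.7) in HT striatum, a difference of 1.42 (SE 0.20) for hippocampus against PFC. Hist1h4h was at 14.9, 17.9, 14.98, 19.9 and 15.2 in HT hippocampus, 19.01, 12.4, 7.74, 9.13 and 8.81 in HT PFC and 27.97 to 50.03 (median 31.3) in HT striatum; it differed by -1.53 (SE 0.25) for PFC against striatum and, not called, by 0.56 (SE 0.26) for hippocampus against PFC. The summed pair differed by 0.81 (SE 0.16) for hippocampus against PFC and -0.61 (SE 0.16) for PFC against striatum. Within HT, the call of Hist2h4 in hippocampus against striatum was lost without hippocampus HT replicate 3 or 5 or striatum HT replicate 4, at 0.48 to 0.55. That of Hist1h3d in PFC against striatum was lost without PFC HT replicate 4 or 5 or striatum HT replicate 2 or 3, at -0.96 to -0.74.

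**Figure D5:**
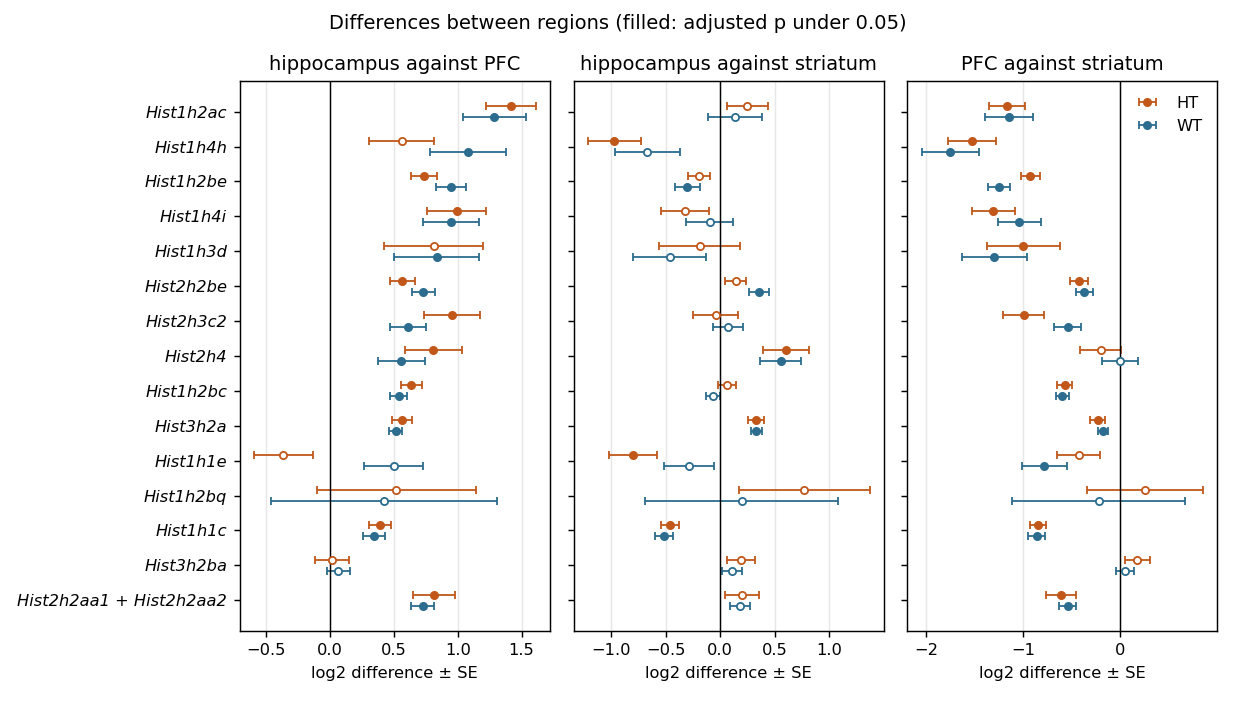
Log2 difference between regions with its standard error for the members tested, within HT (upper point of each gene) and within WT (lower point); filled points have an adjusted p under 0.05, and the pair Hist2h2aa1 and Hist2h2aa2 is shown as its sum. With the rows of the pair counted singly, hippocampus against PFC gives 9 called members in HT and 12 in WT, all above 0, and PFC against striatum gives 10 in HT and 11 in WT, all below 0.

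The scale of the values bears on these counts. Scaling all libraries to equal totals moved the median of all genes by 0.089 in hippocampus against PFC, -0.053 in hippocampus against striatum and -0.14 in PFC against striatum. The share of called genes that were higher became 66.7% instead of 51.0%, 40.3% instead of 49.7% and 30.2% instead of 48.8% in the same order. Within WT 17 members were then tested, instead of 16. Those called were 14 higher and 0 lower, 3 higher and 2 lower, and 0 higher and 13 lower. Beside them, 50.9%, 48.5% and 61.3% of all genes were called in the same order. Within HT the same scaling gave shares higher of 67.6% instead of 51.4%, 40.8% instead of 50.1% and 30.1% instead of 48.9%. Of the 17 members tested, those called were 10 higher and 0 lower, 2 higher and 4 lower, and 0 higher and 11 lower. Beside them, 47.3%, 45.8% and 59.9% of all genes were called. In hippocampus against PFC the members called were higher by 0.35 to 1.29 within WT on the scale as deposited. In PFC against striatum those called were at -1.75 to -0.18, the last for Hist3h2a. Both shifts had the same sign as these differences, so equal totals moved them further from 0.

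Markers of several cell types differed between the same regions. The 6 oligodendrocyte markers were all higher in hippocampus than in PFC and all lower in PFC than in striatum within WT; their sum was at 141488 to 185223 in hippocampus, 85166 to 134115 in PFC and 213127 to 259822 in striatum. The 6 choroid plexus markers did likewise, with sums in hippocampus, PFC and striatum of 2058 to 65209, 116 to 193 and 22368 to 88756, and so did the 4 ependymal markers. Within HT the oligodendrocyte sums were 130412 to 172418, 113824 to 129286 and 238538 to 280817 and the choroid plexus sums 2400 to 85966, 78 to 151 and 1265 to 85713 in the same regions. In PFC, the choroid plexus marker Kcne2 was at 0 in 4 of 5 HT libraries and Folr1 in 1 of 6 WT libraries, and the ependymal marker Tmem212 was at 0 in 1 of 5 HT and 3 of 6 WT libraries. Of 5 microglial markers, 4 were lower in hippocampus than in PFC, with sums of 4996 to 6011 in WT hippocampus and 6132 to 7582 in WT PFC. Their part in the histone differences was not tested, and in tissue RNA fewer cells of a type and less RNA per cell cannot be told apart.

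Genes that act on histone genes, mRNAs or proteins were counted from lists in the same fits, and 0 of them were called for HT against WT in any region (limma), where 0 genes were called in all. Of 23 tested genes of histone gene transcription and 3′ end processing, 6 were higher and 5 lower in hippocampus than in PFC within WT, and 5 were higher and 5 lower in PFC than in striatum. Of all genes tested, 46.3% were called in hippocampus against PFC and 56.6% in PFC against striatum within WT, and the counts of each list are given beside those shares, with nothing read from them about a list. E2f1, a transcription factor of the G1 to S transition, was lower in hippocampus than in PFC, at -1.90 (SE 0.13), and higher in PFC than in striatum, at 1.97 (SE 0.13). Lsm11, a component of the U7 particle that guides cleavage after the stem-loop, was higher in PFC than in striatum by 1.33 (SE 0.063). Sympk, a scaffold of the cleavage complex, was lower in hippocampus than in PFC, at -0.32 (SE 0.043). Slbp, named here for its role and after its values were seen, was called in neither comparison, at -0.12 (SE 0.074) and -0.026 (SE 0.074).

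Of 11 replication-independent histone variants, which are made outside S phase from polyadenylated mRNAs, 4 were higher and 2 lower in hippocampus than in PFC within WT. H3f3b and H3f3a, both of which encode the replacement variant of H3, were higher, at 0.34 (SE 0.032) and 0.30 (SE 0.046), and they were lower in PFC than in striatum, at -0.40 (SE 0.032) and -0.34 (SE 0.046). H2afy2, a macroH2A gene, was lower in hippocampus, at -0.42 (SE 0.063). Of 15 histone chaperones tested, 2 were higher and 4 lower in hippocampus than in PFC. Anp32e, a chaperone of the variant H2A.Z, and Nap1l1, a chaperone of H2A and H2B, were lower, at -0.24 (SE 0.037) and -0.31 (SE 0.050). Of 20 genes of S phase and dividing cells, 3 were higher and 3 lower in hippocampus than in PFC, and 1 was higher and 5 lower in PFC than in striatum. Mcm6, a subunit of the replicative helicase, was higher in hippocampus by 1.55 (SE 0.12), and Ccnb1 (cyclin B1) lower, at -1.14 (SE 0.23). Of 8 genes of neuroblasts and immature neurons, 5 were higher and 2 lower in hippocampus than in PFC. Neurod1 was higher at 1.38 (SE 0.16) and Sox11 at 0.57 (SE 0.081). The 2 lower genes were Tac2, at -1.21 (SE 0.16), and Dcx, named after its values were seen, at -0.32 (SE 0.070). In PFC against striatum 1 of these 8, Neurod1, was higher at 2.32 (SE 0.16) and 5 were lower.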

How the data were processed

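RNA of 34 libraries was sequenced after preparation with the TruSeq RNA kit named in the labels. Per the submitters' processing notes, the authors used Salmon 1.1.0, R 3.6.2 and DESeq2 1.26.0 with GRCm38. The deposited signal values are normalized counts per gene, which the authors scaled between libraries; they are not whole reads, so no count model was used and no counting interval is given. Each of the 18548 rows reached at least 10.2 in some library, and a gene ID was matched to GENCODE M21 for 18533 rows.

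Genes with a mean of at least 10 over the libraries of a fit were tested with limma 3.58.1 (R 4.3.3) on log2(value + 1), with a mean trend and robust variance moderation, and p-values were adjusted by Benjamini-Hochberg over all genes tested, with a threshold of 0.05. A fold change on this scale understates the change of low genes. HT was compared with WT in each region, regions were compared within each genotype in a fit of its 3 regions, and the difference of the HT effect between regions was taken from a fit of all 6 groups. Stem-loops, shared 31-base stretches and promoter motifs were searched with Python 3.11.15 and Biopython 1.88. The fits were tested on simulated data, with an outcome that is not given here and on which no result rests. The members and gene lists were chosen with earlier results of these data known. Named members were the 5 of highest mean, the H2A pair, members at 0 in a library of a group that reached over 50 elsewhere, the 5 largest called differences per direction between WT regions and the 2 of smallest p per direction by genotype. From each other list, up to 3 genes of smallest p per comparison were named. Alternatives were other pseudocounts, filters, scaling, libraries left out, blocks by number or code, and summed copies. No table of proteins was used, so copies were grouped by shared sequence.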

Additional observations from a re-analysis of the deposited data

Results flagged for a closer look

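Within groups of 5 or 6 libraries, 17 single values of 210 groups tested stood apart from the rest of their group by Dixon's criterion. Chance gives about 1 in 20 independent groups. The 210 include sums and a share that reuse values of the same members, so the count cannot be set against that rate. The H2A pair accounts for several of the values. Its HT and WT values chose the family, so its entries are a description with no test. In hippocampus, HT replicate 1 alone carried Hist2h2aa2, at 214, and had 31.02% of the pair at Hist2h2aa1, and WT replicate 1 had Hist2h2aa2 at 312. In striatum, HT replicate 1 had Hist2h2aa1 at 9.73, 4.59% of the pair, and WT replicate 1 had it at 213.

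The other values lie in single genes or sums. PFC WT replicate 2 had Hist1h2bq at 62.1 and the sum of Hist1h2bq and Hist1h2br at 69.9. Hist1h1e was at 39.03 in hippocampus HT replicate 4. Hist3h2ba was at 246 in hippocampus WT replicate 5. In striatum, Hist1h3d was at 9.798 in HT replicate 4, Hist1h4h at 50.03 in HT replicate 3 and Hist1h4j at 4.201 in HT replicate 6. The H3 sum was at 20.3 in PFC HT replicate 4 and at 89.3 in striatum HT replicate 2. The H4 sum was at 170.4 in hippocampus HT replicate 5, and the sum of all members at 3501 in striatum HT replicate 5.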

How the results depend on the processing

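No called difference of a member changed sign under the alternatives run. For HT against WT, 0 genes and 0 members were called in the 3 regions under pseudocounts of 0.5 and 5, both other filters, non-robust moderation and summed copies. In hippocampus, 1 gene was called with equal library totals and 1 with a replicate block by number. Without the libraries whose code begins with 31, 6 genes and 2 members were called in hippocampus and 1 gene, a member, in striatum. With only the libraries whose code begins with 35, 2 genes, both members, were called in hippocampus, 1 gene in PFC and 2 genes in striatum, of which 0 were members. Without the code 31-67M, an alternative chosen after seeing the data, 4 genes and 2 members were called in hippocampus. The members in these counts were Hist2h2aa1 and Hist2h2aa2 in hippocampus and Hist2h2aa1 in striatum; their HT and WT values chose the family and were known when this code was left out, so the counts are a description with no test. Leaving out 1 library at a time gave 0 to 4 genes and 0 to 2 members in hippocampus, 0 to 2 genes in PFC and 0 to 1 in striatum.

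Between regions, a minimum mean of 50, which leaves fewer members tested, gave 7 of 9 members in hippocampus against PFC and 6 of 9 in PFC against striatum within WT, beside 50.9% and 60.6% of all genes, and 2 of 9 in hippocampus against striatum and 6 of 9 in PFC against striatum within HT, beside 49.8% and 59.6%. With only the codes that begin with 35, 3 of 17 members were called in hippocampus against striatum in HT and 3 of 16 in WT, beside 38.1% and 38.7% of all genes; the cause was not tested. Leaving out 1 WT library gave 3 to 6 members in that comparison within WT. With all WT libraries it was 5 of 16 members, beside 47.5% of all genes. The shares of all genes in the fits that left out a library are not given here. The sum that includes the Gm genes, that of Hist1h2bq and Hist1h2br, and the code block within HT were also added after seeing the data.

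The replicate numbers are not shown to pair the libraries. With the code that libraries share between regions, the deviations of 32 pairs correlated at -0.033 to 0.296 (median 0.056), and 6 of these were over 0.1. The deviations of same-numbered HT and WT libraries correlated at -0.098 to 0.10 over 16 pairs, 3 of 16 HT libraries correlated best with the WT library of their own number, and the labels give the numbers no meaning. With the replicate block by number, which leaves out a library whose number is not in every group of the fit, 13, 5 and 11 of 16 members were called within WT, beside 45.9%, 47.0% and 56.5% of all genes, and 9, 5 and 10 of 17 within HT, beside 42.9%, 43.3% and 53.1%, in the 3 comparisons of regions, and 1 gene for the HT effect in hippocampus against striatum. With the library code as a block, 12, 5 and 11 of 16 members were called within WT, beside 46.8%, 48.0% and 57.0%, and 9, 5 and 10 of 17 within HT, beside 43.6%, 46.3% and 56%. At this depth, members that averaged under 10 normalized counts were not tested unless the filter was dropped, and of the 748 values of all members 33 were 0, 38 below 1 and 94 below 5.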
